A study of Homo sapiens with 12 samples.

Results

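Cadherins and catenins, the genes of cell-to-cell adhesion complexes, were compared between captured cells and the parental culture of MDA-MB-231. This established cell line derives from human breast cancer and is classed as triple negative. The set was chosen by gene symbol, with earlier results of these data known though no measured value enters the rule, and holds 10 of the 60234 genes in the count table: the cadherins CDH1, CDH2, CDH3, CDH4, CDH6, CDH11 and CDH13, and the catenins CTNNA1, CTNNB1 and CTNND1. The captured cells, labelled fast, had been selected by the trajectory of their migration, and the parental cells are the unselected line. Each population was sequenced as total RNA in 2 batches of 3 libraries, 12 libraries in all, with no drug or genetic change named for any group. The libraries are described as technical replicates, so the p-values reflect library-to-library spread alone, and that spread may be technical. How many cells were captured, how long they were cultured and whether they came from 1 clone is not stated in these sources.

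Classical cadherins are single-pass membrane proteins that bind cadherins of a neighbouring cell through calcium-dependent repeats. Inside the cell, their tails bind beta-catenin, which recruits alpha-catenin and through it the actin cytoskeleton, while p120-catenin binds closer to the membrane and keeps the cadherin at the surface. Beta-catenin that is not held at the junction is degraded by a destruction complex or, when Wnt signals block that complex, acts with TCF and LEF factors in the nucleus. In breast epithelium CDH1 is the main cadherin, and its loss with a gain of CDH2 or CDH11 is a familiar marker pattern of mesenchymal cells.

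Library totals ran from 53267145 to 75944907 counts. On these raw totals, a CPM of 1 (counts scaled to a common library total) was about 53.3 counts in the shallowest library. The first principal component separated the populations and held 79.9% of the variance, and the second separated the batches and held 11.3%. The line's mesenchymal marker VIM was abundant in every library (6623 to 7332 CPM in fast cells and 4966 to 5167 CPM in parental cells), and ESR1 was at most 0.279 CPM. ERBB2 lay between 56.3 and 66.2 CPM and PGR between 0.276 and 2.58 CPM. Markers of other cell types were checked as lists of 8 genes each. Of the fibroblast list, DCN and LUM were at 0 in all libraries and 6 genes had at most 10 counts in any library; the sum, mostly COL1A1, was 9.07 to 11.8 CPM in fast cells and 14.2 to 16.6 CPM in parental cells. The endothelial sum was mostly ROBO4 and ran from 106 to 114 CPM in fast and from 63.8 to 78.1 CPM in parental cells, with 3 genes at no more than 10 counts in any library. The leukocyte sum was 1.18 to 1.69 CPM in fast cells and 1.54 to 2.65 CPM in parental cells, with 6 genes at no more than 10 counts in any library. The part of these marker genes in the results below was not tested. In bulk RNA, fewer cells that express a gene and less RNA per cell cannot be told apart.

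Of the 10 genes, 7 passed the low-count filter and were tested among 22668 genes with edgeR's quasi-likelihood test, with batch as a term and p-values adjusted over all genes (threshold 0.05). Over both batches 5 of the 7 passed: CDH3 was higher in fast cells, and CDH4, CDH11, CTNNA1 and CTNNB1 were lower. Among all tested genes 63.4% passed (31.9% higher and 31.5% lower), so a call by itself does not set these genes apart. Within batch 1 the same 4 genes were lower, against 56.1% of all genes called (27.1% lower). In batch 2 these 4 were lower and CDH3 was higher, against 56.0% of all genes called (27.4% higher and 28.6% lower). The median log2 fold change of the 7 genes was -0.36 over both batches, -0.31 in batch 1 and -0.20 in batch 2, beside 0.0055, 0.021 and -0.011 over all tested genes. CDH1, CDH6 and CDH13 did not pass the filter and are given by their counts. CDH11 passed the filter through its parental libraries alone, so its entry into the test rested on the population where it was high, and its call is a description. CDH2 passed through its fast libraries alone, with 3 fast and 2 parental libraries at the filter's level.

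**Figure D1:**
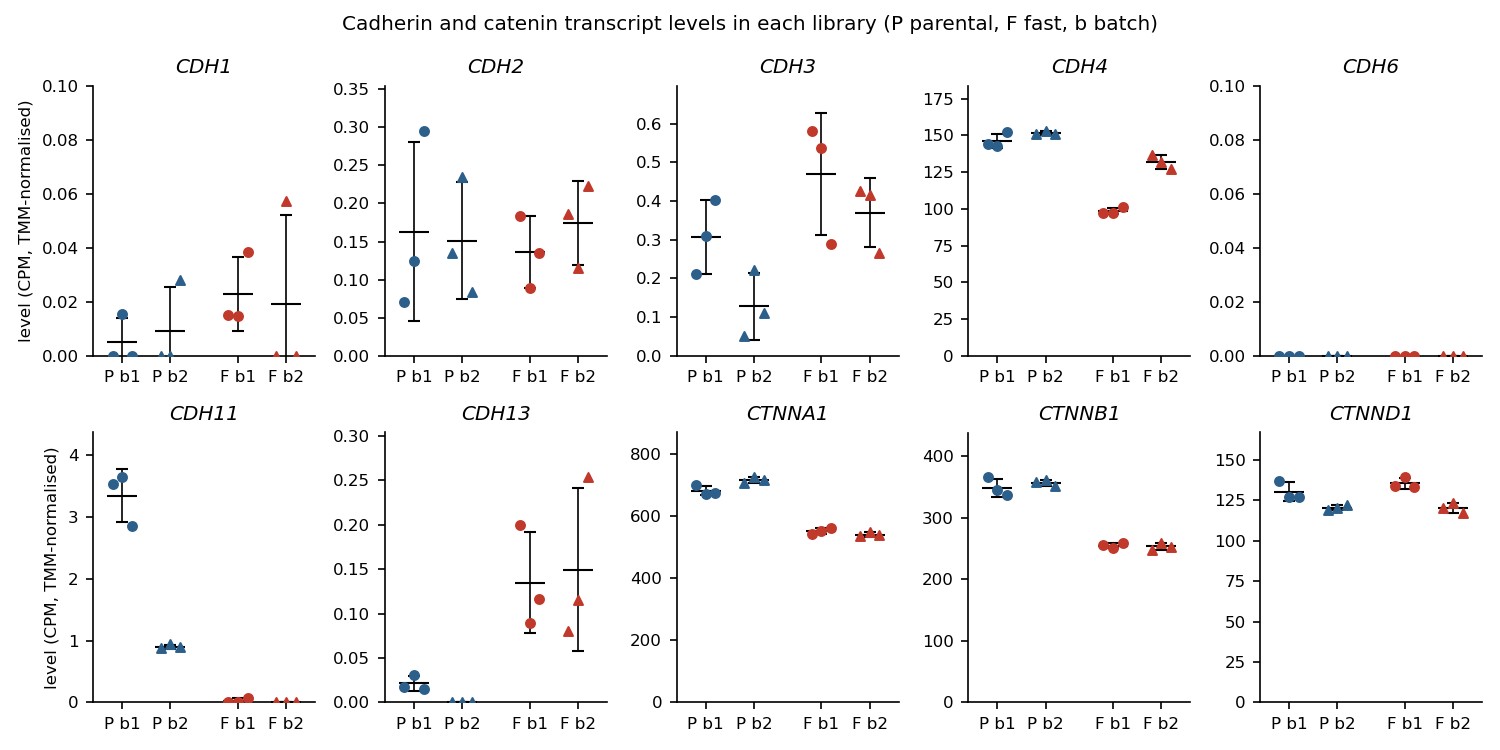
TMM-normalised CPM (y axes, linear and on a separate scale for each gene) of the 10 genes in the 12 libraries, by population and batch (x axes; circles batch 1, triangles batch 2); bars are the mean and SD of 3 libraries, cut off at 0. The fast libraries lie below all parental libraries for CDH4, CDH11, CTNNA1 and CTNNB1 and above them for CDH13, overlap with them for CDH1, CDH2, CDH3 and CTNND1, and CDH6 is at 0 throughout.

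CDH4, or R-cadherin, a classical cadherin first described in retina, had the highest level of the 7 cadherins in each population. It stood at 144, 143 and 152 CPM in the parental libraries of batch 1 and 151, 153 and 151 CPM in those of batch 2. The fast libraries had 97.3, 97.4 and 101 CPM in batch 1 and 137, 132 and 127 CPM in batch 2. All 6 fast libraries were below all 6 parental libraries, and within fast cells batch 1 lay well below batch 2. The mean was 115 ± 18.6 CPM in fast cells and 149 ± 4.46 CPM in parental cells (SD, n = 6 each). On the log2 scale the difference was -0.38 ± 0.06 SE over both batches (edgeR adjusted p = 1.76e-04). That call was lost when the 3 libraries of each group were summed to 1 (-0.37, edgeR adjusted p = 0.196). It was -0.57 ± 0.03 in batch 1 (edgeR adjusted p = 1.76e-18) and -0.20 ± 0.03 in batch 2 (2.46e-06).

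The size of the CDH4 difference was not the same in both batches. The change in batch 2 minus that in batch 1 was 0.37 ± 0.05 SE on the log2 scale (edgeR adjusted p = 5.85e-07), and among the 7 tested genes CDH4 alone passed this test, which 5.40% of all tested genes passed (1.75% with a higher and 3.65% with a lower value in batch 2). In a comparison added after the values were seen, the fast libraries of batch 2 were above those of batch 1 by 0.42 ± 0.03 (edgeR adjusted p = 5.92e-13), where 11.4% of all tested genes were called higher in batch 2 and 15.7% lower, 27.2% in all. Parental libraries differed by 0.05 ± 0.03 between batches (edgeR adjusted p = 0.275; approximate 95% interval -0.02 to 0.12).

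CDH11, or OB-cadherin, a type II cadherin known from osteoblasts and mesenchymal cells, was nearly confined to parental libraries. The parental libraries of batch 1 held 202, 235 and 184 counts and those of batch 2 held 52, 68 and 64. The fast libraries held 0, 0 and 4 counts in batch 1 and 0 in each of the 3 libraries of batch 2. The lowest parental library was thus far above the highest fast library. In all, 4 counts stood against 805, a ratio of normalised totals of 205, lower in fast cells (exact 95% interval 79.8 to 755, counting error only). The 4 counts came from fast batch 1 replicate 3, and without that library CDH11 was at least 238-fold lower in fast cells, taking 3 counts over the group as the floor. In batch 2 alone it was at least 64.1-fold lower. No p-value is given, since the filter let the gene in through the parental libraries alone.

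The parental libraries themselves differed in CDH11 between batches. Their mean was 3.35 ± 0.429 CPM in batch 1 and 0.904 ± 0.0321 CPM in batch 2 (SD, n = 3 each), with no overlap. In a comparison added after the values were seen, batch 2 was lower by 3.69-fold (log2 fold change -1.88 ± 0.24 SE, edgeR adjusted p = 4.25e-08), where 14.8% of all tested genes were lower and 15.2% higher in batch 2, 30.0% in all. The difference of the population effect between batches did not pass (edgeR adjusted p = 0.54), and with fast libraries at or near 0 it could not be sized.

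CDH3, or P-cadherin, a classical cadherin of basal epithelial cells, was present at low counts. The parental libraries held 12, 20 and 26 counts in batch 1 and 3, 16 and 8 in batch 2, and the fast libraries held 38, 36 and 15 in batch 1 and 32, 29 and 18 in batch 2. The populations overlapped, with the highest values in fast and the lowest in parental libraries. Means were 0.419 ± 0.126 CPM in fast cells and 0.218 ± 0.128 CPM in parental cells (SD, n = 6 each). The rise on the log2 scale was 1.0 ± 0.33 SE over both batches (edgeR adjusted p = 0.00845) and 1.49 ± 0.49 in batch 2 (0.00817). In batch 1 it was 0.61 ± 0.44 and did not pass (edgeR adjusted p = 0.246), and the difference between batches did not pass either (0.545). The call in batch 2 was lost without parental batch 2 replicate 1 (1.16, edgeR adjusted p = 0.0518). The log2 fold change in batch 2 ranged from 1.16 to 2.14 as 1 library at a time was left out, and the highest value came without parental batch 2 replicate 2.

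CDH13, or T-cadherin, is held in the membrane by a lipid anchor and has no catenin-binding tail. Fast libraries held 13, 6 and 6 counts in batch 1 and 6, 8 and 17 in batch 2, and parental libraries held 1, 2 and 1 in batch 1 and 0 in all 3 of batch 2. Every fast library was above every parental library, at levels of at most 17 counts. The totals of 56 and 4 counts gave a ratio of 13.7, higher in fast cells (exact 95% interval 5.08 to 52.2, counting error only). The ratio was 6.31 in batch 1 (2.18 to 24.9), and in batch 2 CDH13 was at least 9.89-fold higher in fast cells. It fell short of the filter. With no filter on low counts, its log2 fold change over both batches was 3.61 (edgeR adjusted p = 4.09e-05).

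For CDH2, or N-cadherin, the cadherin of nerve and mesenchymal cells, no difference was detected at this depth. Parental libraries held 4, 8 and 19 counts in batch 1 and 8, 17 and 6 in batch 2, and fast libraries held 12, 6 and 7 in batch 1 and 14, 8 and 15 in batch 2. The groups overlapped, and each population came to 62 counts. The log2 fold change was -0.03 ± 0.42 SE (edgeR adjusted p = 0.962), with an approximate 95% interval from -0.85 to 0.79.

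CDH1, or E-cadherin, was at or near 0 in both populations. Fast libraries held 1, 1 and 2 counts in batch 1 and 0, 4 and 0 in batch 2, and parental libraries held 0, 1 and 0 in batch 1 and 0, 0 and 2 in batch 2. The totals of 8 and 3 counts gave a ratio of 2.62 with an exact 95% interval from 0.628 to 15.3, which includes no difference. CDH6, or K-cadherin, a type II cadherin known from kidney, had 0 counts in all 12 libraries. In the shallowest library a count of 0 allows a level of up to 0.0563 CPM (3 counts over the raw library total, without normalisation), counting error only.

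The catenins were far more abundant than most of the cadherins. To compare levels between genes, CPM was divided by the length of each gene's exons in kilobases. That length covers the exons of all annotated transcripts (7.35 for CDH4, 8.83 for CTNNA1, 8.8 for CTNND1 and 11.9 for CTNNB1). It can exceed the length of the transcripts present, so levels compared between genes are rough. On that scale CTNNA1 stood at 61.9 in fast and 79.2 in parental cells, CTNNB1 at 21.3 and 29.6, and CTNND1 at 14.5 and 14.2. CDH4 stood at 15.7 in fast and 20.3 in parental cells. Without the division by length, CDH4 was at 115 and 149 CPM, CTNND1 at 128 and 125 CPM and CTNNB1 at 254 and 352 CPM. Where CDH4 stands beside CTNNB1 thus depends on the lengths used.

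The genes of alpha-catenin and beta-catenin, which form the link between cadherin tails and actin, were lower in fast cells in both batches. Their promoters are shown because these are the 2 catenin genes of the set that were lower. Any part of the promoters in those changes was not tested. RefSeq lists 4 starts for CTNNA1 and 1 for CTNNB1. The stretches are the 250 bases before the first start that RefSeq lists for each gene on the plus strand of GRCh38.p14, chr5:138753175-138753424 for CTNNA1 and chr3:41199255-41199504 for CTNNB1. Capitals mark GC boxes, the 6 letters GGGCGG on either strand (CCGCCC on the other), a motif bound by SP1-type factors; neighbouring boxes may overlap.
CTNNA1: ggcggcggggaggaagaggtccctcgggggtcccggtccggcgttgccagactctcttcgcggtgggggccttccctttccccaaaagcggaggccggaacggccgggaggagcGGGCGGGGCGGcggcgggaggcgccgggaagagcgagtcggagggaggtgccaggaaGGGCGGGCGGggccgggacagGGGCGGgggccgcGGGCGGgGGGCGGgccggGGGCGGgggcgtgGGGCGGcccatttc
CTNNB1: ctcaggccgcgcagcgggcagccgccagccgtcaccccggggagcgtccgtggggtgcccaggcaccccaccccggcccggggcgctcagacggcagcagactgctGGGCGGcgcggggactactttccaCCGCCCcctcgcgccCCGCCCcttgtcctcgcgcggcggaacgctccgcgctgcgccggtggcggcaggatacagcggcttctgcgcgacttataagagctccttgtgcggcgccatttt
The CTNNA1 stretch held 9 GC boxes and the CTNNB1 stretch held 3, at GC contents of 80.0% and 74.4%. Among 35116 promoter stretches of this length in the same RefSeq table, 42.6% held at least 1 GC box and 0.285% held as many as CTNNA1, and the median GC content was 58.0%. A match is a description of the letters and not a bound site. Of the 10 genes, 4 had a promoter entry in the table, namely CDH2, CDH4, CTNNA1 and CTNNB1. The entry of CDH4, which was also lower in fast cells, is an internal start and is not shown.

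CTNNA1, which encodes alpha-catenin, stood at 701, 673 and 675 CPM in the parental libraries of batch 1 and 706, 725 and 717 CPM in those of batch 2. The fast libraries had 544, 552 and 561 CPM in batch 1 and 535, 549 and 539 CPM in batch 2. The highest fast library was well below the lowest parental library. Means were 547 ± 9.07 CPM in fast cells and 700 ± 21.3 CPM in parental cells (SD, n = 6 each). This gave a log2 fold change of -0.36 ± 0.02 SE (edgeR adjusted p = 5.12e-15), with -0.31 ± 0.03 in batch 1 and -0.40 ± 0.03 in batch 2. The difference between batches, -0.10 ± 0.04, did not pass (edgeR adjusted p = 0.186). Its pseudogene CTNNAP1 had 8 to 66 counts per library.

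CTNNB1, which encodes beta-catenin, stood at 365, 344 and 337 CPM in the parental libraries of batch 1 and 357, 361 and 351 CPM in those of batch 2. Fast libraries had 255, 250 and 258 CPM in batch 1 and 248, 259 and 253 CPM in batch 2. No fast library came near the parental range. Means were 254 ± 4.58 CPM in fast cells and 352 ± 10.8 CPM in parental cells (SD, n = 6 each), a log2 fold change of -0.47 ± 0.03 SE (edgeR adjusted p = 6.18e-18). Batch 1 gave -0.45 ± 0.03 and batch 2 gave -0.49 ± 0.03, and the difference between them did not pass (edgeR adjusted p = 0.75; approximate 95% interval -0.13 to 0.05).

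CTNND1, which encodes p120-catenin, did not pass the test. Parental libraries had 137, 127 and 127 CPM in batch 1 and 119, 120 and 122 CPM in batch 2, and fast libraries had 134, 139 and 133 CPM in batch 1 and 120, 123 and 117 CPM in batch 2. The populations overlapped, and in each of them batch 2 was below batch 1. Means were 128 ± 8.68 CPM in fast cells and 125 ± 6.58 CPM in parental cells (SD, n = 6 each). The log2 fold change was 0.03 ± 0.03 SE (edgeR adjusted p = 0.404), with an approximate 95% interval of -0.03 to 0.08. In comparisons added after the values were seen, batch 2 was lower than batch 1 in parental cells by a log2 fold change of -0.11 ± 0.03 (edgeR adjusted p = 0.00947) and in fast cells by -0.17 ± 0.03 (1.54e-04). In batch 1 the difference between populations passed when parental batch 1 replicate 1 was left out (0.10, edgeR adjusted p = 0.0169).

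Reads of CTNND1 can be shared with 2 overlapping genes, since the counting rule for such reads is not stated in these sources. The readthrough transcript TMX2-CTNND1 fell from 27.4 CPM in parental to 21.8 CPM in fast cells (-0.33 ± 0.04 SE on the log2 scale, edgeR adjusted p = 7.21e-09). RP11-691N7.6 fell from 24.7 to 21.7 CPM (-0.19 ± 0.05, edgeR adjusted p = 6.10e-04). The part of these shared exons in the CTNND1 value was not tested.

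The makeup of the 3 catenins differed between populations, a description chosen after the values were seen. CTNND1 made up 13.8% of the 3 catenins' counts in fast cells (12.9% to 14.7% by library) and 10.6% in parental cells (9.92% to 11.4%). CTNNB1 made up 27.4% in fast (26.6% to 27.9%) and 29.9% in parental cells (29.5% to 30.4%). CTNNA1 made up 58.9% in fast (58.3% to 59.3%) and 59.4% in parental cells (58.3% to 60.3%). The ranges of CTNND1 and of CTNNB1 did not overlap, and those of CTNNA1 did.

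Each gene was then set beside the 20 tested genes nearest to it on its chromosome that had at least 1 CPM, 10 on each side. The catenin genes lie among genes that were mostly lower in fast cells. Around CTNNA1 on chromosome 5, 18 of 20 neighbours had a log2 fold change below 0 and their median was -0.54, with HSPA9 at -0.74 and SIL1 at -0.69 on either side. Around CTNNB1 on chromosome 3 it was 19 of 20, with a median of -0.52. The nearest genes there were RP11-761N21.2 at -0.30 and ULK4 at -0.01. Around CTNND1 on chromosome 11 it was 19 of 20, with a median of -0.35. RP11-691N7.6 at -0.19 and LPXN at 0.18 were nearest to it. The neighbours of CTNND1 include both overlapping genes. When the neighbours' median was taken away, the direction turned for CTNNA1 (log2 fold change 0.19, edgeR adjusted p = 8.66e-09) and for CTNNB1 (0.07, edgeR adjusted p = 0.02; 0.161 in batch 2). CTNND1 then stood at 0.40 and passed (edgeR adjusted p = 4.23e-15). The falls of CTNNA1 and CTNNB1 were thus no larger than the median fall of the genes around them. CTNNB1, at -0.47, still fell more than the nearest gene on either side. Here and for the cadherins below, the neighbours' median entered the test as a fixed value. The p-values after centring thus leave out the spread among neighbours. Over both batches the neighbours ran from -0.95 to 0.64 for CTNNA1, from -2.68 to 0.26 for CTNNB1 and from -5.73 to 0.18 for CTNND1. The centred values of all 3 catenins lie within or near such spreads and are descriptions.

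The cadherin genes on chromosome 16 lie among genes that were mostly higher in fast cells. CDH1 and CDH3 share their 20 neighbours, with ZFP90 (0.65) and TANGO6 (0.82) nearest. Of the 20, 19 had a log2 fold change above 0, with a median of 0.55. The same held for 19 of 20 neighbours of CDH13 (median 0.55) and of CDH11 (median 0.50). CDH11 was thus almost lost from fast cells in a stretch of genes that were mostly higher there. The genes nearest to CDH13 were MPHOSPH6 at 0.30 and HSBP1 at 0.50. Nearest to CDH11 were RP11-51O6.1 at -0.03 and RP11-403P17.5 at 0.32. Relative to its neighbours CDH3 stood at 0.49 and no longer passed (edgeR adjusted p = 0.208). CDH4 on chromosome 20 had 14 of 20 neighbours above 0 and a median of 0.10, and relative to them it stood at -0.47. Its neighbours ranged from -3.79 to 0.95, and the lowest, RP5-1043L13.1, was the nearest on one side. TAF4, nearest on the other side, stood at -0.05. The medians were -0.13 around CDH2 on chromosome 18 and 0.30 around CDH6 on chromosome 5. KCTD1 at -0.20 and DSC2 at 0.06 were nearest to CDH2, and MSNP1 at -0.62 and DROSHA at -0.10 to CDH6.

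**Figure D2:**
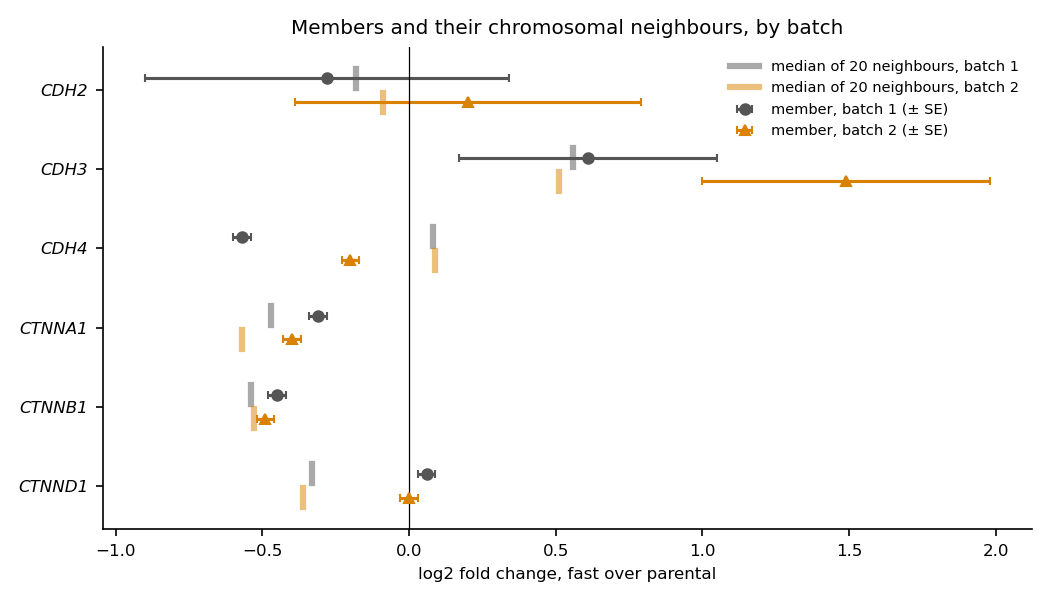
Log2 fold change, fast over parental (x axis), of 6 of the tested genes (y axis) in batch 1 and batch 2, with bars of 1 SE, beside the median of their 20 chromosomal neighbours (short vertical lines). CTNNA1 and CTNNB1 are below 0 but not below their neighbours, CTNND1 is above its neighbours, and CDH4 is below them; CDH11 is left out because its fast libraries are at or near 0.

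Over 22 cadherins of the classical, type II and related groups, the summed level per kilobase of exon was 25.6 ± 2.68 in fast and 25.4 ± 0.646 in parental cells (SD, n = 6 each). The exon lengths again cover all annotated transcripts, so the weight of each gene in the sum and its share are approximate. Within batches the sums lay apart in opposite directions without overlap, at 23.2 ± 0.305 in fast and 25.1 ± 0.686 in parental libraries of batch 1, and at 28.0 ± 0.607 and 25.7 ± 0.499 in those of batch 2 (SD, n = 3 each). Only 5 of the 22 reached a mean of 1 CPM in either population, while CDH6 and CDH7 were at 0 throughout and 11 others had at most 15 counts in any library. CDH4 made up 79.7% of the sum in parental cells (78.1% to 81.5% by library) and 60.9% in fast cells (57.6% to 65.4%). CDH24, a type II cadherin, made up 16.4% in parental and 29.7% in fast cells, and CDH18 made up 1.91% and 7.25%. The share of CDH4 thus differed between populations without overlap in both batches.

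**Figure D3:**
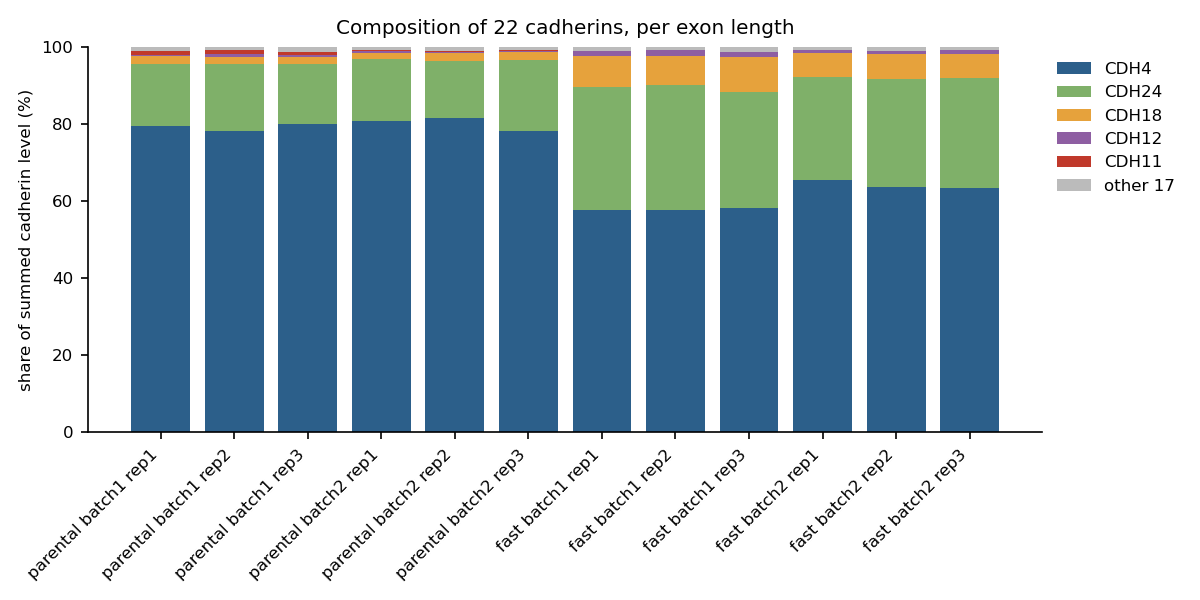
Share of the summed level of 22 cadherins per kilobase of exon (y axis, percent) in each of the 12 libraries (x axis). CDH4 takes 78.1% to 81.5% in parental and 57.6% to 65.4% in fast libraries, and CDH24 and CDH18 take more in fast libraries.

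Of 15 other cadherins fixed as a list, 6 were tested, and 3 rose, 1 fell and 2 did not pass (median log2 fold change 0.35, beside 0.0055 over all tested genes). Among all tested genes 63.4% passed, 31.9% higher and 31.5% lower, so such a count by itself does not set this or a later list apart. CDH18, a type II cadherin of the nervous system, rose from 2.35 ± 0.312 to 8.90 ± 0.725 CPM (SD, n = 6 each; log2 fold change 1.91 ± 0.09 SE, edgeR adjusted p = 1.04e-19). CDH12, its neighbour on chromosome 5 and also a type II cadherin, rose from 0.637 to 1.68 CPM (1.45 ± 0.19, edgeR adjusted p = 7.29e-08). CDH24 rose from 15.7 to 28.3 CPM (0.86 ± 0.05 SE, edgeR adjusted p = 4.31e-17) and is named after its values were seen. CDH10, the cadherin that fell and also named after its values were seen, held 16 counts in fast and 47 in parental cells. It passed the filter through parental libraries alone, where it was high, so its call over both batches is a description. CDH10 was not called in batch 1 or in batch 2. CDH8, a type II cadherin on chromosome 16 like CDH11, had 0 counts in fast and 50 in parental cells, at least 17-fold lower in fast; it too was picked after its values were seen.

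Among the large and atypical cadherins, 5 of 14 tested genes rose, 8 fell and 1 did not pass (median -0.43). For this list and the desmosome list, the shares over all tested genes were 31.9% higher and 31.5% lower. CDH23, counted among the 5, passed the filter through fast libraries alone (4 fast and 1 parental at the filter's level), so its call is a description. FAT3, a giant cadherin, fell from 36.2 to 8.32 CPM (-2.13 ± 0.05 SE on the log2 scale, edgeR adjusted p = 1.33e-27), and FAT2 fell from 0.649 to 0.286 CPM (-1.16 ± 0.25, 1.38e-04). CDHR2, a cadherin of intestinal microvilli, rose from 1.33 to 2.52 CPM and CLSTN3, a calsyntenin, from 8.11 to 11.4 CPM. In the desmosome list, whose cadherins anchor intermediate filaments, 3 of 6 tested genes rose, 1 fell and 2 did not pass (median 0.11). DSP, the desmoplakin that ties desmosomes to intermediate filaments, fell from 134 to 54.7 CPM (-1.29 ± 0.03, edgeR adjusted p = 5.87e-27). PKP3, a plakophilin, rose from 13.4 to 22.7 CPM and DSG2, a desmosomal cadherin, from 99.2 to 111 CPM; DSG2 did not pass without the batch term (log2 fold change 0.16, edgeR adjusted p = 0.102).

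Of the other catenins and their relatives, 4 of 5 tested genes rose and 1 fell (median 0.21). JUP, counted among the 4, also stands in the desmosome list and is counted there as rising. CTNNAL1, an alpha-catenin relative, rose from 207 ± 18.9 to 357 ± 34.7 CPM (SD, n = 6 each; log2 fold change 0.79 ± 0.02 SE, edgeR adjusted p = 3.41e-24), and ARVCF, of the p120 family, rose from 2.63 to 3.60 CPM. CTNNA2, the alpha-catenin of nerve cells and the gene that fell, held 6 counts in fast and 159 in parental cells. The ratio was 27.0, lower in fast (exact 95% interval 12.1 to 74.7, counting error only). CTNNA2 passed the filter through parental libraries alone, where it was high, so its call is a description. Of the adherens junction partners, 9 of 15 tested genes rose and 6 fell (median 0.11). For this list and the one before it, the shares over all tested genes were 31.9% higher and 31.5% lower. AFDN, which links nectins to actin, rose from 69.6 to 123 CPM and PTPRM, a phosphatase that binds across cell contacts, from 131 to 191 CPM. PTPRF, a receptor phosphatase, fell from 518 to 317 CPM and CAMSAP3, which anchors microtubule minus ends, from 1.10 to 0.146 CPM.

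The genes that act on beta-catenin away from the junction moved in both directions. Of the 10 genes of the destruction complex and its partners, all tested, 4 rose, 5 fell and 1 did not pass (median -0.11). For this list and the nuclear partners, the shares over all tested genes were 31.9% higher and 31.5% lower. The kinase gene GSK3B rose from 66.6 to 93.2 CPM and BTRC, of the ubiquitin ligase, from 28.4 to 34.4 CPM, while AMER1 fell from 16.3 to 5.13 CPM and AXIN2, a scaffold and also a feedback target, from 5.18 to 2.96 CPM. Of the 10 nuclear partners, 3 rose, 5 fell and 2 did not pass (median -0.28). TCF7L1, a TCF factor known mainly as a repressor, fell from 3.59 to 0.394 CPM (-3.20 ± 0.15 SE on the log2 scale, edgeR adjusted p = 2.06e-19) and the coactivator BCL9 from 18.6 to 8.55 CPM. The TCF factor gene TCF7 rose from 2.68 to 4.25 CPM and TCF7L2 from 23.4 to 29.3 CPM. Of the beta-catenin target and feedback genes, 6 of 11 tested fell and 5 did not pass (median -0.19), where 63.4% of all tested genes passed and 31.5% fell. In batch 2 alone, 7 of the 11 were lower and 2 were higher, where 28.6% of all tested genes were lower and 27.4% higher. NOTUM, counted among the 2, passed the filter through fast libraries alone (3 fast and 0 parental at the filter's level), so its call is a description. Among them RNF43, a ligase that removes Wnt receptors, fell from 1.39 to 0.311 CPM and LGR5, a receptor of R-spondins, from 1.19 to 0.581 CPM. AXIN2 and LEF1 each stand in 2 of these lists and are counted in both.

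Genes for cadherin cleavage and p120 partners were split, with 4 of 10 higher, 4 lower and 2 not passing (median -0.04). For this list and the CDH1 repressors, the shares over all tested genes were 31.9% higher and 31.5% lower. ZBTB33, the p120-binding repressor Kaiso, fell from 34.9 to 15.9 CPM, and APH1A, of the gamma-secretase complex, from 142 to 93.8 CPM. ADAM15, a membrane protease, rose from 120 to 143 CPM and ARHGAP35, a GTPase-activating protein bound by p120, from 149 to 174 CPM; the latter did not pass without the batch term (edgeR adjusted p = 0.0709). Of the known repressors of CDH1, 7 of 11 were tested, and 2 rose, 3 fell and 2 did not pass (median 0.04), with CDH1 itself near 0 in both populations. KLF8, counted among the 3, had 0 counts in all fast libraries and 801 in parental cells, at least 272-fold lower in fast. It passed the filter through parental libraries alone, where it was high, so its call is a description. Of the same list, TCF4, an E-box-binding factor, fell from 1.28 to 0.235 CPM. SNAI1, which encodes Snail, rose from 1.17 to 2.83 CPM (1.22 ± 0.21 SE on the log2 scale, edgeR adjusted p = 6.48e-05). The rise was 1.89 ± 0.19 in batch 1 and 0.58 ± 0.18 in batch 2, and the difference between batches passed (-1.30 ± 0.26, edgeR adjusted p = 9.05e-04). SNAI2, which encodes Slug and is named after its values were seen, fell from 60.7 to 21.4 CPM (-1.51 ± 0.04 SE, edgeR adjusted p = 1.44e-26).

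**Figure D4:**
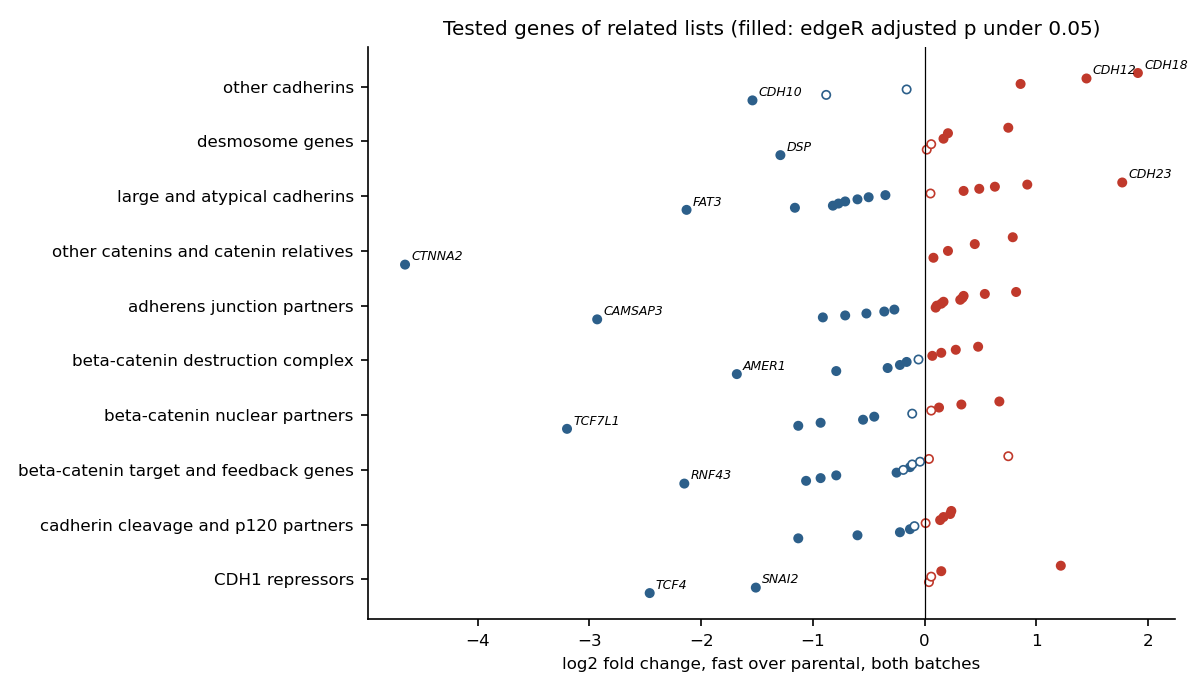
Log2 fold change over both batches, fast over parental (x axis), of the tested genes of 10 related lists (y axis); each point is 1 gene and filled points passed edgeR's quasi-likelihood test at an adjusted p under 0.05. Most lists hold genes on both sides of 0, with TCF7L1 and CTNNA2 among the lowest, and KLF8 is left out because its fast libraries are at 0. CTNNA2 and CDH10 passed the filter through parental libraries alone and CDH23 through fast libraries alone, so their filled points are descriptions.

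Likeness of pattern was measured as Pearson's r of log2 CPM over the 12 libraries, among 13443 genes, for the 3 genes with the largest changes that passed in both batches at 1 CPM or more. The points share populations and batches, so high values are common. CTNNB1 was most like KIF2C, TXNDC5 and CLINT1 (r = 0.995 each), and 1292 genes reached at least 0.95. CDH11 was most like ZBTB47 and CUL4B (r = 0.991 each) and MTHFD1 (0.990), and 805 genes reached 0.95. CDH4, with its fast batches apart, had only 8 such genes, led by IK (r = 0.980), PACS1 (0.978) and TFAP4 (0.967). IK, for example, stood at 142 and 163 CPM in fast cells of batch 1 and batch 2, and at 169 and 177 CPM in parental cells.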

How the data were processed

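RNA from cultured MDA-MB-231 cells was isolated with a QIAGEN column kit and sequenced from standard Illumina libraries, per the labels' protocols. Per the submitters' processing notes, Trimmomatic 0.32, STAR 2.3.0e and featureCounts 1.4.4 were used with hg19/GRCh37. Strand use and treatment of reads with several matches are not stated in these sources. The deposited table holds the authors' raw counts per gene, not normalized.

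Counts were analysed with edgeR 4.0.16 (R 4.3.3; TMM, robust quasi-likelihood test, default filter with a minimum count of 10 and total of 15), with batch as an additive term, or with 1 mean per population and batch for effects within a batch and their difference. P-values are Benjamini-Hochberg adjusted over 22668 genes. Approximate intervals are the log2 fold change with a margin from its standard error. Gene order, exon length and overlap come by gene ID from GENCODE release 29 (GRCh38), which placed 95.1% of tested genes, and promoters from RefSeq. Of the counts, intervals and floors cover counting error only. The 12 pairs of libraries within a group differed beyond counting noise (index of dispersion 3.67 to 10.7), and 0 pairs were identical.

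The 10 genes and the 13 lists beside them were chosen with earlier results of these data known. The named genes are the 10, up to 2 rising and 2 falling genes per list called with the same sign in both batches, the 3 most alike genes of up to 3 members, and the nearest neighbours. A few others are named where the text gives the reason. Alternatives were RLE normalization, DESeq2 1.42.0, limma-voom (limma 3.58.1), no filter, no batch term, a replicate block, summed libraries, centring on neighbours, and leaving out each library. The steps were tested on simulated counts.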

Additional observations from a re-analysis of the deposited data

Results flagged for a closer look

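For CDH4 the difference between fast and parental cells was not the same in both batches. The log2 fold change in batch 2 minus that in batch 1 was 0.37 (edgeR's quasi-likelihood test, adjusted p = 5.85e-07). Fast libraries stood at 98.5 ± 1.94 CPM in batch 1 and 132 ± 4.77 CPM in batch 2, and parental libraries at 146 ± 5.18 and 152 ± 1.15 CPM (SD, n = 3 each). Leaving out each library in turn kept the difference between 0.34 and 0.46.

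Among the genes named by rule from the lists, 4 also differed in effect between batches by the same test, which 5.40% of all tested genes passed. Chromosomal neighbours and genes of like pattern are not counted here. Batch 2 minus batch 1 was -1.30 for SNAI1 (edgeR adjusted p = 9.05e-04), 0.36 for COL1A1 (0.0362), -0.17 for ROBO4 (0.0433) and -0.80 for TIE1 (9.64e-04).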

How the results depend on the processing

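The number of the 10 genes called ranged from 4 to 6 over both batches, across 9 settings that kept all libraries and 12 that left out 1. It ranged from 4 to 5 in batch 1 and 4 to 6 in batch 2, and was 1 for the difference between batches, across 7 and 12 settings. The number of the 10 genes tested varied from 5 to 9 with the filter and the libraries. Among all genes, 12230 to 14692 were called over both batches, 11165 to 12758 in batch 1 and 11227 to 12844 in batch 2. For the difference between batches it was 878 to 1465. As first reported, these shares were 63.4%, 56.1%, 56.0% and 5.40% of 22668 tested genes, so the counts of members by themselves do not set this set apart. Of 1303 gene values compared, 43 changed sign. Most were in CDH2, CTNND1 and the differences between batches, none of which had passed, and the cause was not tested. CDH2 over both batches was 0.09 with limma-voom, 0.05 with the replicate block and 0.10 when centred on neighbours, and -0.19 to 0.31 without 1 library. Without 1 library it was -0.61 to 0.47 in batch 1, -0.07 to 0.69 in batch 2 and -0.26 to 0.96 for the difference. The CDH11 difference was 0.60 with limma-voom and -2.36 to 1.89 without 1 library. CTNND1 in batch 2 was 0.00 with RLE normalization and with DESeq2, 0.02 with no filter, 0.37 when centred on neighbours and 0.00 to 0.05 without 1 library. Its difference between batches was 0.00 with no filter and -0.09 to 0.02 without 1 library, and that of CTNNB1 was 0.02 and -0.07 to 0.03. Centring on neighbours turned CTNNA1 to 0.19, 0.20 and 0.17, and CTNNB1 to 0.07, 0.09 and 0.06, over both batches, in batch 1 and in batch 2.

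Replicate numbers did not pair the libraries: the correlation of same-numbered libraries was -0.08 to 0.07, and 0 of 6 pairs passed 0.1. Numbers were taken from the sample titles; in batch 1 the count table's column names number 3 libraries differently, so 1 of the 6 pairs is not same-numbered by column name. With the replicate block 5 of the genes were called over both batches, as without it, and 13966 of all genes.

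Depth limits CDH1, CDH2, CDH3, CDH6 and CDH13, which had few counts, and the libraries' technical nature limits what any p-value covers.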
